A study of Mus musculus with 12 samples.

Results

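The imprinted growth network is a group of genes that are expressed from 1 parental allele and set the pace of fetal and neonatal growth. Its 10 members here were Igf2, Igf2r, Igf1r, Grb10, H19, Plagl1, Peg3, Cdkn1c, Mest and Dlk1, chosen by symbol from 23337 gene rows as imprinted growth genes that are silenced after birth, plus Igf1r, which is not imprinted and is the receptor that carries the Igf2 signal. The rule itself used no measured value of these samples, but the members were chosen with earlier results of these data known. They were measured in cardiomyocytes (CMs) in which Srf, the gene of serum response factor, had been deleted. SRF is a transcription factor that binds the CArG box and drives sarcomere and cytoskeletal genes.

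CTRL animals were Srf-flox/+ and KO animals were Srf-flox/flox, so CTRL CMs could also lose 1 Srf allele. All animals received AAV9-cTNT-Cre, a virus that expresses Cre from a troponin T promoter, and carried a Cre-activated fluorescent reporter on a mixed genetic background. The virus was given at P1 with collection at P14 (neonatal KO and its CTRL) or at P60 with collection at P90 (adult KO and its CTRL), with 3 samples in each of the 4 groups. The dose was low, so hearts were mosaic, and fluorescent CMs were sorted after collagenase perfusion. Counts per sample ran from 9740389 to 23103460, and 3 counts were worth 0.1397 to 0.3171 CPM (the usual unit of counts scaled to a common library size) depending on the sample. CPM in the text were scaled once over all 12 samples by TMM factors. The reads were counted per gene with no allele information, so whether 1 or both parental alleles were read was not measured, and in a sorted pool fewer cells of a type and less RNA per cell cannot be told apart.

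Parental imprints are DNA methylation marks laid down in the germ line, and they leave 1 allele of a gene active. Growth promoters such as Igf2, Peg3 and Mest are active on the paternal allele, while growth restrainers such as H19, Igf2r and Cdkn1c are active on the maternal allele. Plagl1 is a zinc-finger factor regarded as a hub of the network, and many genes of the group are known to decline after birth as organs slow their growth.

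Srf itself was measured first. It was 64.33, 56.95 and 49.61 CPM in P14 CTRL and 32.06, 27.79 and 9.68 CPM in P14 KO. In adults it was 71.8, 57.5 and 80.39 CPM in CTRL and 33.2, 29.15 and 27.88 CPM in KO. KO and CTRL did not overlap at either age, and KO kept 40.7% of the CTRL mean at P14 and 43.03% at P90. edgeR's quasi-likelihood test, adjusted by Benjamini-Hochberg over all genes tested, gave a log2 difference of -1.30 ± 0.36 (SE, adjusted p 0.0628) at P14 and -1.23 ± 0.13 (adjusted p 0.00347) at P90. The summed level of 8 CM markers was 67460 to 101600 CPM over the 12 samples. Defining markers of other cell types were also counted, with 8 fibroblast markers at 52.55 to 352.9 CPM in sum, 8 endothelial markers at 191 to 440.9 CPM, 6 mural cell markers at 72.75 to 214.4 CPM and 6 leukocyte markers at 5.137 to 13.53 CPM. Of 6 erythroid markers, 4 or 5 were at 0 in every sample. The globin genes Hba-a1, Hba-a2, Hbb-b1 and Hbb-b2 were at 0 CPM in every group, while Alas2 had 1.544 CPM in P14 CTRL. How reads that map to several places were counted is not given, so no absence of red cells is read from these zeros. Over 100 Y-linked counts were found in 3 of the 12 libraries (called below the libraries with Y-linked counts, the others having 0 to 2), 1 each in P90 CTRL (replicate 3), P14 KO (replicate 3) and P14 CTRL (replicate 1).

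The genome sequence at the members' starts is shown where it bears on a factor that was deleted. RefSeq promoter windows, 250 bases before to 50 after a start, were matched for 8 of the 10 members (14 windows, since Igf2, Mest and Grb10 have several starts) and for Srf. The CArG box was searched as CC, 6 letters that are each A or T, then GG, which reads the same way on both strands. It was found in 535 of 32851 windows of all genes (1.629%), in 1 of the 14 member windows, and at 2 places in the window of Srf. The member window belongs to an Igf2 start that lies 5′ of the Igf2 exons in the tables, and its match begins 155 bases before the start. The matches at Srf begin 82 and 62 bases before the start. The 250 bases before each of these starts are printed with the CArG boxes in capitals, and both starts of Grb10, the member whose KO effect differed between the ages, follow with no match. A match describes letters and not a bound site. Another Igf2 start lies further 5′ (window chr7:142666767-142667066, no match), so the Igf2 start called upstream below is not the most upstream one.
Igf2 upstream start, GRCm38.p6 chr7:142661272-142661521, minus strand: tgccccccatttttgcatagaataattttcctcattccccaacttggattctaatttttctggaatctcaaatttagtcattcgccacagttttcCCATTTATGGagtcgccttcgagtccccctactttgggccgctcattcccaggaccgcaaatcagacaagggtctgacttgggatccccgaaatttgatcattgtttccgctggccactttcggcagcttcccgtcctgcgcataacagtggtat
Srf start, GRCm38.p6 chr17:46556163-46556412, minus strand: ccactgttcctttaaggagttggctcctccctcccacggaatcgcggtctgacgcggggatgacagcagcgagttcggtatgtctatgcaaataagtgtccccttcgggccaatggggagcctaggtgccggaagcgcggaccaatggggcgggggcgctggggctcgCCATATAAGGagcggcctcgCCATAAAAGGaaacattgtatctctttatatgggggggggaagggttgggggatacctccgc
Grb10 upstream start, GRCm38.p6 chr11:12037421-12037670, minus strand: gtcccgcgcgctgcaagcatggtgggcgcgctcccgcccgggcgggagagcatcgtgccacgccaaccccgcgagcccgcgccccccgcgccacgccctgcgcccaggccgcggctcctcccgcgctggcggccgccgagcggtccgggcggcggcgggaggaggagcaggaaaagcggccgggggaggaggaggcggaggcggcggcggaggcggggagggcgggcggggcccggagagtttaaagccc
Grb10 downstream start, GRCm38.p6 chr11:12027972-12028221, minus strand: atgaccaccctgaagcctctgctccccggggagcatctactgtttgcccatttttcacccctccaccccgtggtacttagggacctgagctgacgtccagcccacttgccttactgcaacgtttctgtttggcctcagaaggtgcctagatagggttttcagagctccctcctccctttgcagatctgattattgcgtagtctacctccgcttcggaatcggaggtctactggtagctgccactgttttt

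The upstream Grb10 window was the richest in G and C of the 14, at 80% of its 300 bases and with a CpG ratio (observed over expected from base content) of 0.97, against 52.3% and 0.45 for the downstream one. The median CpG ratio over all windows was 0.38. The counts were made per gene and do not show which Grb10 start was used.

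H19 is a noncoding RNA, 1 exonic block in the tables, that carries the hairpin of a miRNA pair, so the mature sequences (RefSeq, GRCm38.p6) are shown with the seed (bases 2 to 8) in capitals. Both arms lie within this block on chromosome 7, and they share no seed.
miR-675-5p, chr7:142577112-142577133, minus strand: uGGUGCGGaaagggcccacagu
miR-675-3p, chr7:142577078-142577099, minus strand: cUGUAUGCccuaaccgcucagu
The polyA libraries did not measure mature miRNAs, and the separate row for this hairpin held 0 counts in all 12 samples. The hairpin took 84 of the 2615 exonic bases of H19 (3.212%). Igf2 and Mest each host a miRNA gene in an intron, with no exonic base shared.

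Position in the genome gave the group its structure (mm10 coordinates, from the tables). H19 (chr7:142575532-142578146) and Igf2 (chr7:142650768-142661035) are neighbours on the minus strand, and Cdkn1c (chr7:143458339-143461050) lies in the next imprinted domain of the same arm. Peg3 (chr7:6705960-6730419) and Igf1r (chr7:67952257-68233667) are elsewhere on that chromosome. The others are Plagl1 at chr10:13090788-13131695, Igf2r at chr17:12682406-12769706, Grb10 at chr11:11930499-12037420, Mest at chr6:30733506-30748466 and Dlk1 at chr12:109452823-109463336. Antisense genes share exonic bases with Igf2 (Igf2as, 98 bp) and with Peg3 (Peg3as, 865 bp, 13.059% of the Peg3 exons). Igf2as held 0 to 3 counts and Peg3as 0 counts in every sample, but the strand setting of the counting is not given in the sources used here, so antisense reads cannot be told apart from those of the gene.

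Igf2, the ligand of the network and a fetal growth factor, fell with H19 by more than the other tested members between P14 and P90 in both genotypes. It was 46.05, 29.02 and 16.03 CPM in P14 CTRL and 26.74, 41.13 and 13.29 CPM in P14 KO. At P90 it was 1.769, 0.9513 and 1.02 CPM in CTRL and 1.016, 1.536 and 1.103 CPM in KO. Every P14 sample was above every P90 sample, while KO and CTRL overlapped at both ages. The log2 fold change of P90 against P14 was -4.52 ± 0.44 (SE) in CTRL and -4.43 ± 0.43 in KO, with adjusted p of 0.000243 and 3.89e-05, and the P14 mean was 24.36 and 22.21 times the P90 mean. KO against CTRL gave -0.17 ± 0.44 at P14 (adjusted p 0.856, 95% interval -1.03 to 0.68) and -0.08 ± 0.36 at P90 (adjusted p 0.938, interval -0.78 to 0.62). A shift in Igf2 of up to about the size of the interval was thus not detectable with 3 samples a group, and the sign of the P14 value turned when P14 CTRL replicate 1 was left out (0.24).

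H19, the noncoding neighbour that is expressed from the opposite parental allele under the same imprinting centre, fell with Igf2. It was 9.73, 8.677 and 1.879 CPM in P14 CTRL and 2.712, 9.28 and 1.455 CPM in P14 KO. Adult levels were 0.2081, 0.2114 and 0.3137 CPM in CTRL and 0.2539, 0.1397 and 0.2363 CPM in KO, which is 10 counts over each group and close to 3 counts per library. The stage change was -4.75 ± 0.71 on the log2 scale in CTRL and -4.43 ± 0.81 in KO, with adjusted p of 0.00174 and 0.00144. Neonatal KO against CTRL gave -0.61 ± 0.72 (adjusted p 0.664, interval -2.02 to 0.80). It ran from -1.68 without P14 KO replicate 2 to -0.17 without P14 KO replicate 3, and H19 did not pass the filter on low counts in the adult comparison.

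Igf2 and H19 also shared a spread among the P14 samples that genotype did not follow. The replicates numbered 3 had the lowest Igf2, H19 and Cdkn1c of their group in CTRL and in KO, a grouping seen after the values were examined. For Cdkn1c these were 2.818 CPM in CTRL and 2.056 CPM in KO. Plagl1 was lowest there in CTRL (26.01 CPM) but not in KO (31.05 CPM), and Peg3 was at 35.75 CPM in CTRL and 35.01 CPM in KO, between the other samples. The fibroblast marker sum was 261.7 CPM in P14 CTRL replicate 3, between the other CTRL samples (327.9 and 116.5 CPM), and 195 CPM in P14 KO replicate 3, the lowest of its group (221 and 352.9 CPM).

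**Figure D1:**
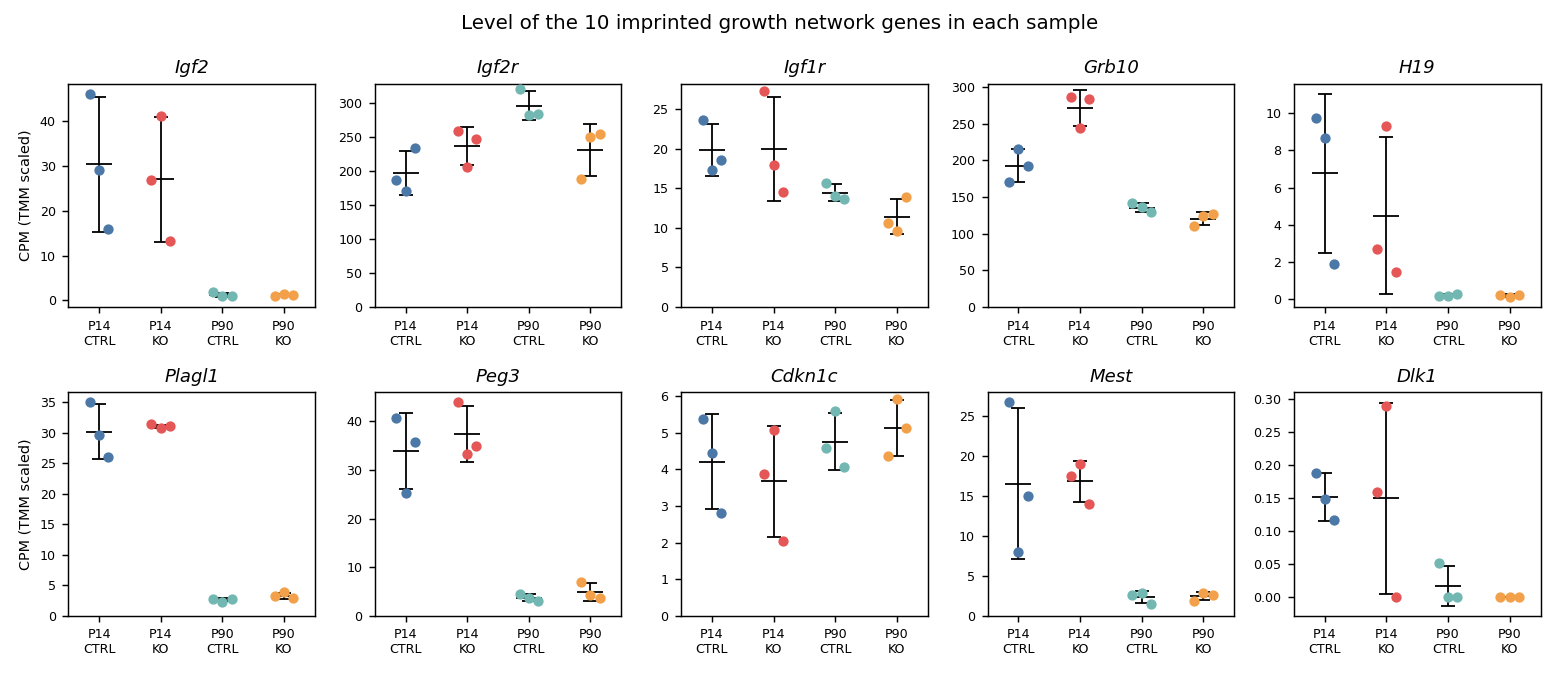
Each panel plots the CPM of 1 gene (vertical axis, linear) in the 4 groups, with points for the 3 samples of each group and bars for the mean and SD. Igf2, H19, Plagl1, Peg3 and Mest fell to low levels at P90 in both genotypes, Grb10 in P14 KO sat between 243.6 and 286.5 CPM, above the 169.9 to 215.9 CPM of P14 CTRL, and Dlk1 stayed under 0.3 CPM.

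Igf2r, the receptor that takes Igf2 to the lysosome for degradation, was one of the 2 members at high level at both ages. It was 186, 170.3 and 232.7 CPM in P14 CTRL and 257.5, 205.3 and 246.3 CPM in P14 KO. At P90 it was 319.9, 282 and 283.6 CPM in CTRL and 187.2, 249.3 and 254.5 CPM in KO. In CTRL it rose with age, with no overlap, by 0.61 ± 0.14 on the log2 scale (adjusted p 0.0109). In KO the stage value was -0.04 ± 0.14 (adjusted p 0.836, interval -0.31 to 0.24). The adult KO samples were all below the adult CTRL samples, at 78.04% of the CTRL mean, with a log2 fold change of -0.37 ± 0.12 that did not pass the adjustment (p 0.0118, adjusted p 0.184). Neonatal KO gave 0.27 ± 0.15 (adjusted p 0.31), and the difference between the neonatal and adult effects was 0.65 ± 0.21 (adjusted p 0.118). The rise in CTRL lost its call without P90 CTRL replicate 1 (0.56, adjusted p 0.052) and without the libraries with Y-linked counts (0.61, adjusted p 0.111).

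Airn, a noncoding RNA that starts inside Igf2r on the opposite strand and silences it on the paternal allele in many tissues, shares no exonic position with Igf2r in the tables. It had mean levels of 9.695, 15.88, 3.806 and 3.666 CPM in P14 CTRL, P14 KO, P90 CTRL and P90 KO. Its stage change was -1.33 ± 0.24 in CTRL (adjusted p 0.00383) and -2.12 ± 0.15 in KO (adjusted p 6.93e-06). Igf2r rose in CTRL by 0.61 ± 0.14, but in KO its stage value was -0.04 ± 0.14 (adjusted p 0.836). Airn overlaps the span of Igf2r and the strand setting of the counting is not given. Reads from Igf2r introns thus cannot be told apart from those of Airn. A link between Airn and Igf2r was not tested.

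Igf1r, the signalling receptor for Igf1 and Igf2, was 23.57, 17.35 and 18.49 CPM in P14 CTRL and 27.28, 17.93 and 14.55 CPM in P14 KO. Adult samples held 15.66, 13.95 and 13.65 CPM in CTRL and 10.6, 9.637 and 13.86 CPM in KO. The P14 and P90 samples did not overlap in either genotype. The stage change was -0.44 ± 0.16 in CTRL (adjusted p 0.0694) and -0.82 ± 0.24 in KO (adjusted p 0.0154), and the difference between genotypes was not past the threshold (0.38 ± 0.31, adjusted p 0.553). The KO call was lost without P14 KO replicate 1 (-0.52, adjusted p 0.0522), P90 KO replicate 1 (-0.76, adjusted p 0.0514) or P90 KO replicate 2 (-0.68, adjusted p 0.0683). Adult KO was lower than CTRL by -0.37 ± 0.16 on the log2 scale, with overlapping groups and an adjusted p of 0.291.

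Grb10, an adaptor that binds the insulin and IGF1 receptors and restrains their signal, had the smallest p of the members in neonatal KO. It was 169.9, 215.9 and 192.6 CPM in P14 CTRL and 286.5, 243.6 and 283.6 CPM in P14 KO, so every KO sample was above every CTRL sample and the KO mean was 140.7% of the CTRL mean. At P90 the order was turned, with 141.8, 135.8 and 129.1 CPM in CTRL and 109.9, 123.9 and 126.7 CPM in KO, again with no overlap and at 88.65% of the CTRL mean. The neonatal effect was 0.49 ± 0.13 on the log2 scale (p 0.00556, adjusted p 0.0574) and the adult effect was -0.19 ± 0.10 (p 0.0736, adjusted p 0.355). The difference between these effects was 0.69 ± 0.16 (interval 0.38 to 1.00, adjusted p 0.0478). The neonatal effect was past the threshold in 5 of 14 fits and the difference in 9 of 19. With age Grb10 fell by 0.49 on the log2 scale in CTRL (SE 0.12, adjusted p 0.0142) and by 1.18 in KO (SE 0.11, adjusted p 2.52e-05). The CTRL fall lost its call without P90 CTRL replicate 3 (-0.44, adjusted p 0.0777) and without the libraries with Y-linked counts (-0.53, adjusted p 0.0952).

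The CM marker sum was lower in KO at both ages. The paper reports that Myh6, Tnni3 and Myl2, which are in this list, were lower in neonatal KO and had SRF bound near their promoters. The sum thus cannot tell CM content apart from an effect of the deletion on the markers themselves. This sum was 91640 to 101600 CPM in P14 CTRL and 67460 to 73410 CPM in P14 KO, and 88080 to 99280 CPM in P90 CTRL and 81700 to 84270 CPM in P90 KO. Of the 8 CM markers, 1 passed the test in neonatal KO, Myh6, the adult myosin heavy chain, at -0.65 ± 0.16 (adjusted p 0.0466). Myh6 was the largest part of the sum, with means of 55870 and 35520 CPM in P14 CTRL and KO. At P90 its means were 54900 and 40720 CPM. In adult KO Ttn and Ryr2 also had lower means, while Tnnt2, Tnni3, Myl2, Actn2 and Pln had higher ones. The list's median was -0.395 in neonatal KO and 0.095 in adult KO. The mural marker sum was 82.18 to 179.2 CPM in P14 CTRL and 194.2 to 214.4 CPM in P14 KO, with 1 of 6 markers called, Cspg4, at 1.34 ± 0.23 (adjusted p 0.0157). The higher sum was mostly that of Cspg4 (48.28 and 121.8 CPM on average). Rgs5, Pdgfrb and Notch3 had lower means in KO, and the list's median was -0.055. Myh11 (17.99 and 20.85 CPM) and Vtn (6.002 and 6.206 CPM) had slightly higher means in KO. None of the 8 endothelial, 7 tested fibroblast or 5 tested leukocyte markers was called in neonatal KO by edgeR. Over all genes 8.59% were called in neonatal KO, 4.6% lower and 3.99% higher, and nothing particular to these lists is read from their counts. The part of these markers in the Grb10 values was not tested.

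Plagl1, the zinc-finger factor at the hub of the network, fell in both genotypes with age. It was 35, 29.62 and 26.01 CPM in P14 CTRL and 31.37, 30.79 and 31.05 CPM in P14 KO. At P90 it was 2.757, 2.325 and 2.745 CPM in CTRL and 3.238, 3.818 and 2.835 CPM in KO, where the groups did not overlap but differed by 0.33 ± 0.23 on the log2 scale (adjusted p 0.514). The stage change was -3.50 ± 0.18 in CTRL and -3.22 ± 0.14 in KO, with adjusted p of 1.66e-05 and 8.21e-07. At P14 the KO effect was 0.04 ± 0.13 with an interval of -0.22 to 0.29, the narrowest interval of the 9 tested members in that comparison.

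Peg3, a paternally expressed zinc-finger gene linked to growth and cell survival, fell in the same way. It was 40.67, 25.23 and 35.75 CPM in P14 CTRL and 43.92, 33.2 and 35.01 CPM in P14 KO. Adult levels were 4.526, 3.594 and 3.059 CPM in CTRL and 7.047, 4.19 and 3.623 CPM in KO. The stage change was -3.15 ± 0.23 in CTRL and -2.91 ± 0.23 in KO, with adjusted p of 6.36e-05 and 1.2e-05. KO and CTRL overlapped at both ages, with differences of 0.14 ± 0.19 at P14 (adjusted p 0.703) and 0.38 ± 0.27 at P90 (adjusted p 0.525).

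Mest, a paternally expressed gene of the hydrolase family that is abundant in mesoderm, was 26.64, 7.929 and 14.91 CPM in P14 CTRL and 17.44, 18.9 and 13.99 CPM in P14 KO. Adult samples held 2.653, 2.854 and 1.49 CPM in CTRL and 1.905, 2.887 and 2.599 CPM in KO. The stage change was -2.81 ± 0.45 in CTRL and -2.76 ± 0.20 in KO, with adjusted p of 0.00254 and 7.4e-06. KO against CTRL gave 0.03 ± 0.36 at P14 (adjusted p 0.977) and 0.08 ± 0.31 at P90 (adjusted p 0.929). The lowest P14 sample, CTRL replicate 2, also had the lowest fibroblast (116.5 CPM), endothelial (204.9 CPM) and mural (82.18 CPM) marker sums at P14.

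Cdkn1c, the imprinted inhibitor of cyclin-dependent kinases, was the member whose level did not move with age beyond its spread in either genotype. It was 5.384, 4.438 and 2.818 CPM in P14 CTRL and 3.881, 5.075 and 2.056 CPM in P14 KO. At P90 it was 4.578, 5.602 and 4.078 CPM in CTRL and 4.38, 5.913 and 5.119 CPM in KO. The stage value was 0.18 ± 0.29 in CTRL (interval -0.39 to 0.75, adjusted p 0.672) and 0.49 ± 0.30 in KO (interval -0.11 to 1.08, adjusted p 0.196). KO against CTRL gave -0.21 ± 0.37 at P14 (adjusted p 0.792) and 0.12 ± 0.21 at P90 (adjusted p 0.818). The intervals with age leave out a fall of the size seen for Igf2 or Plagl1.

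Dlk1, a transmembrane ligand of the Notch family found in fetal tissue, was close to the limit of detection throughout. It had 4, 3 and 2 counts in P14 CTRL, 3, 6 and 0 in P14 KO, 1, 0 and 0 in P90 CTRL and 0 in all P90 KO samples. It passed the low-count filter in none of the 5 comparisons, so no fold or test is given.

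The counts of called members were then set against those of all genes. In neonatal KO 0 of the 9 tested members were called by edgeR (1, Grb10, at an unadjusted p under 0.05), where 8.59% of 12546 tested genes were called, 4.6% lower and 3.99% higher. DESeq2 called 1 member there, Grb10, and 1787 genes in all, where edgeR called 1078. In adult KO 0 of 8 were called by edgeR (2, Igf2r and Igf1r, at an unadjusted p under 0.05, and 0 by DESeq2), where 0.39% of 11808 genes were called, 0.152% lower and 0.237% higher. The median log2 fold change was 0.03 in neonatal KO and -0.002 in adult KO, beside 0.001 and 0.006 over all genes. In the test of whether the neonatal and adult effects differ, 1 of 9 members was called, Grb10, where 1.78% of 12841 genes were called, 0.958% lower and 0.818% higher.

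Age separated the members in both genotypes. In CTRL 7 of 9 tested members were called, 6 lower at P90 (Plagl1, Igf2, H19, Peg3, Mest and Grb10) and 1 higher (Igf2r), with a median log2 fold change of -2.81. Over all 12294 genes 29.3% were called, 14.9% lower and 14.5% higher, with a median of -0.012. In KO 7 of 9 were called, all lower (Igf1r in place of Igf2r), with a median of -2.76, where 56.8% of 12417 genes were called, 29.1% lower and 27.7% higher. The members were chosen as genes silenced after birth, so this direction was part of the choice. The 2 ages were also injected and collected at different times and held in separate tables of raw counts, so age and preparation cannot be told apart.

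**Figure D2:**
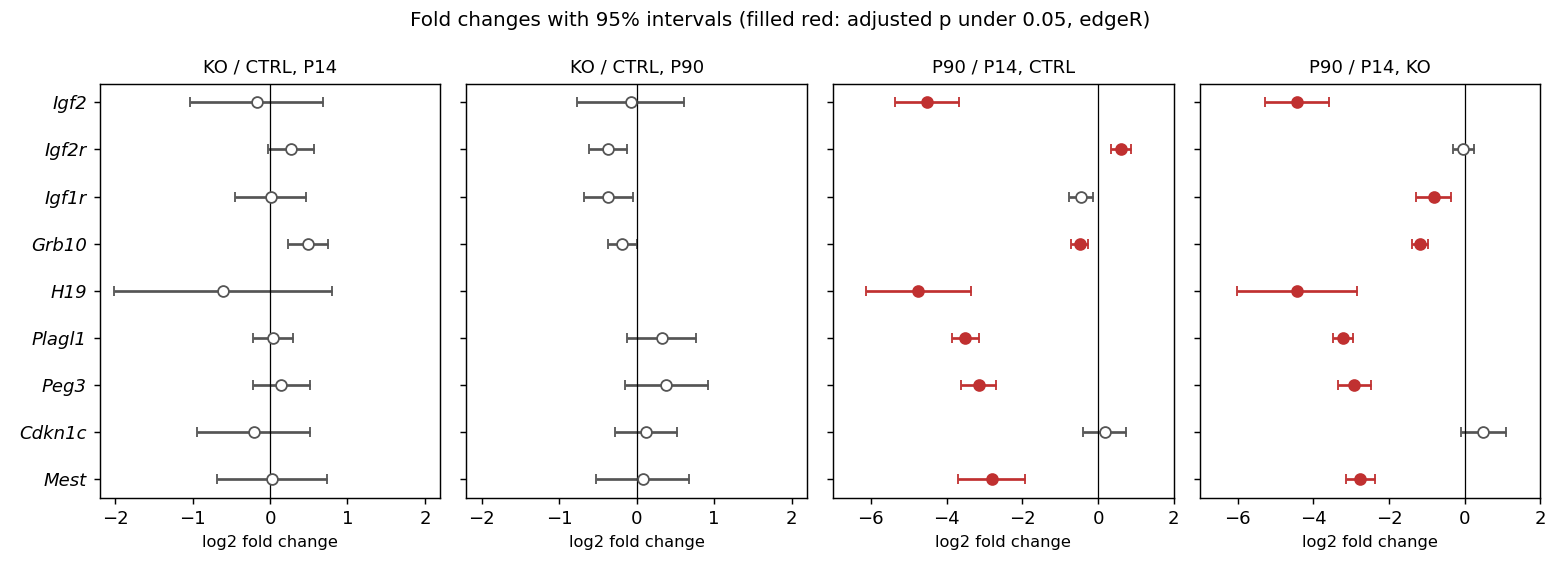
Points are log2 fold changes (horizontal axis) of 9 genes in 4 comparisons (8 in adult KO, where H19 was not tested), with 95% intervals, and filled red points passed an adjusted p of 0.05 by edgeR. The first 2 panels, KO against CTRL, hold 0 filled points, and the last 2, P90 against P14 on a wider axis, hold 7 each.

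Markers of other cells fell with age beside the members. In CTRL 5 of 7 tested fibroblast markers and 5 of 8 endothelial markers were lower at P90, with medians of -1.961 and -0.77 on the log2 scale, and in KO 4 of 7 and 4 of 8, with medians of -1.93 and -0.63. Over all genes 14.9% were lower in CTRL and 29.1% in KO. The fibroblast sum was 116.5 to 327.9 CPM in P14 CTRL, 195 to 352.9 CPM in P14 KO, 52.55 to 71.35 CPM in P90 CTRL and 53.71 to 73.14 CPM in P90 KO. Col3a1, a fibrillar collagen of fibroblasts and the largest part of this sum, had a stage change of -2.49 in CTRL. Igf2 had -4.52, Plagl1 -3.503 and Mest -2.81. The fibroblast markers did not all fall alike. Dcn (-0.864, adjusted p 0.0557) and Pdgfra (-0.203, adjusted p 0.803) were not called in CTRL by edgeR. Tcf21, which was not tested, had means of 0.3009 CPM in P14 CTRL and 0.2797 CPM in P90 CTRL. Of the 6 mural markers 1 was lower in CTRL (Cspg4), and of the 5 tested leukocyte markers 0 were called there by edgeR. Alas2, an enzyme of haem synthesis in red cell precursors and the 1 erythroid marker tested, fell from 1.544 to 0.1662 CPM in CTRL. The part of these cells in the fall of the members was not tested.

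**Figure D3:**
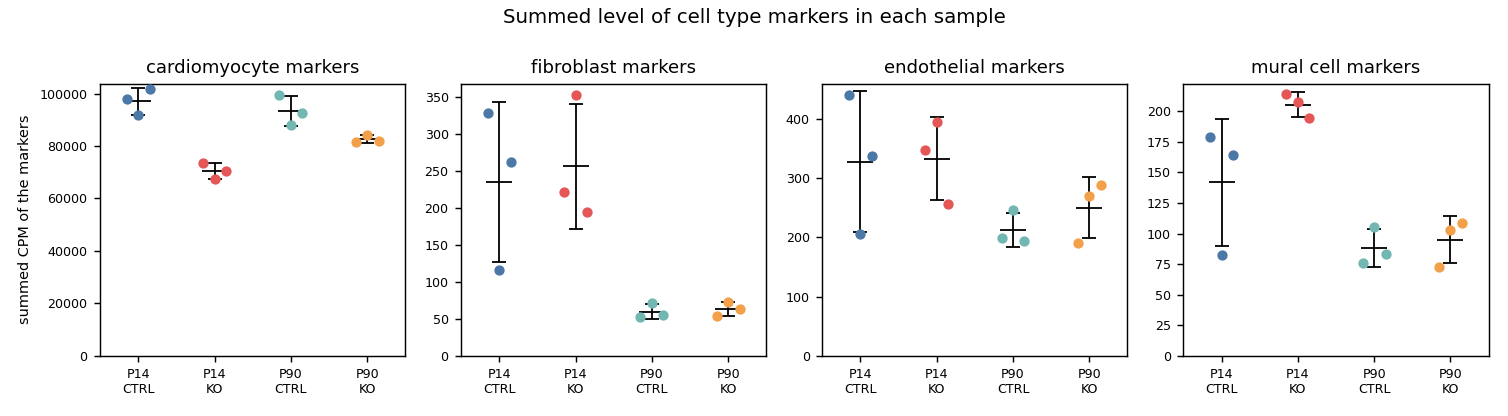
Each panel plots the summed CPM of a marker list (vertical axis from 0) per sample in the 4 groups, with mean and SD bars. Fibroblast sums lay at 116.5 CPM or more at P14 and at 73.14 CPM or less at P90, and CM sums of P14 KO lay below those of P14 CTRL.

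Per kilobase of exon, the order of the levels changed between the ages. In P14 CTRL Grb10 was highest (37.39 ± 4.459 CPM per kb, SD, n = 3), followed by Igf2r (21.99 ± 3.632). Igf2 (7.169 ± 3.554), Mest (5.939 ± 3.404), Plagl1 (5.742 ± 0.8598) and Peg3 (5.115 ± 1.19) overlapped one another, as did H19 (2.586 ± 1.63), Cdkn1c (2.17 ± 0.6683) and Igf1r (1.653 ± 0.2762) below them. Dlk1 was at 0.03159 CPM per kb. In P90 CTRL Igf2r led (33.06 ± 2.397), with Grb10 below it (26.28 ± 1.23) and no overlap. Cdkn1c came next (2.448 ± 0.4) and then Igf1r (1.204 ± 0.09057), which had been below Igf2, Mest, Plagl1 and Peg3 at P14. Mest (0.8399 ± 0.2652), Peg3 (0.5626 ± 0.1121) and Plagl1 (0.496 ± 0.04674) followed with overlapping neighbours, and Igf2 (0.2943 ± 0.1071) and H19 (0.09347 ± 0.02296) were lowest apart from Dlk1. Adult KO kept this order of means, but Igf2r (25.8 ± 4.198) and Grb10 (23.3 ± 1.748) overlapped there.

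**Figure D4:**
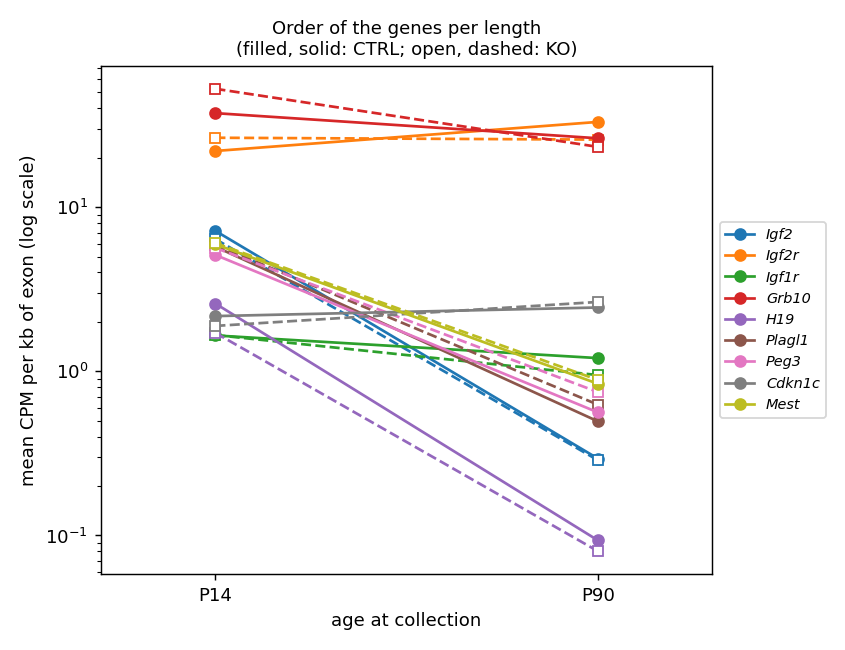
Lines join the mean CPM per kb of exon (vertical axis, log scale) at P14 and P90 for 9 genes, solid with filled circles for CTRL and dashed with open squares for KO. Grb10 and Igf2r stayed above 20 CPM per kb at both ages, while Igf2 fell from 7.169 to 0.2943 CPM per kb in CTRL and Cdkn1c stayed near 2.

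The profiles nearest to Igf2 over the 12 samples were then ranked by the mean absolute difference of centred log2 CPM among 11671 genes. The 5 nearest were Sntb1, a syntrophin of the dystrophin complex (0.33), Eef1a1, a translation elongation factor (0.47), Eln, elastin (0.50), Lpar3, a lysophosphatidic acid receptor (0.50), and Kcne1, a potassium channel subunit (0.51). Among members H19 ranked 6, Plagl1 8, Peg3 15 and Mest 40, against 1413 for Grb10, 2081 for Igf1r, 8158 for Igf2r and 8888 for Cdkn1c. The 5 nearest to H19 were Enpp6, a phosphodiesterase (0.47), Igf2 (0.54), Myl9, a regulatory myosin light chain (0.56), Aqp4, a water channel (0.56), and Lpar3 (0.58). The samples share an age step that dominates this measure, and Eef1a1, for instance, went from 267.6 ± 43.39 CPM in P14 CTRL to 13.53 ± 2.227 CPM in P90 CTRL (SD, n = 3).

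Other imprinted genes were followed as a list of 56, of which 32 or more were tested except in adult KO (29). In neonatal KO 2 of 33 were lower and 0 higher, Ube3a, a ubiquitin ligase (-0.58 ± 0.15, adjusted p 0.0466), and Blcap (-0.61 ± 0.10, adjusted p 0.0136), where 4.6% of all genes were lower. In adult KO 0 of 29 were called, where 0.39% of all genes were. In CTRL 14 of 32 were lower at P90 and 3 higher, led by Zdbf2 (-2.54 ± 0.45), Ddc, which makes dopamine and serotonin (-2.13 ± 0.38), and Ndn, a growth-restraining MAGE protein (-2.03 ± 0.34). The 3 that rose were Slc22a3, a cation transporter beside Igf2r (1.53 ± 0.31), Peg13 (1.29 ± 0.16) and Impact (0.65 ± 0.19). In KO 18 of 32 were lower, with Zdbf2 (-3.82 ± 0.48), Meg3, the noncoding neighbour of Dlk1 (-3.00 ± 0.55), and Ddc (-2.82 ± 0.47) leading, and 7 were higher, led by Slc22a3 (2.02 ± 0.26), Peg13 (1.02 ± 0.15) and Impact (0.66 ± 0.12). Over all genes 14.9% were lower and 14.5% higher with age in CTRL, and 29.1% lower and 27.7% higher in KO. The medians of the list were -0.46 in CTRL and -0.67 in KO, smaller than those of the members.

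The rest of the IGF pathway, a list of 30 genes, held genes that passed the test in both directions with age. In neonatal KO 1 of 27 was called, Igf2bp2, an RNA-binding protein of Igf2 mRNA, which was higher by 0.92 ± 0.17 (adjusted p 0.0182), and in adult KO 0 of 26 were. In CTRL 7 of 26 were lower at P90 and 4 higher, and in KO 11 of 27 were lower and 6 higher. Over all genes the shares called were 8.59% in neonatal KO, 29.3% in CTRL with age and 56.8% in KO with age, and nothing particular to the list is read from its counts. Igf1, the postnatal ligand, fell by 1.98 in CTRL (15.36 ± 3.316 to 3.839 ± 1.577 CPM) and by 2.69 in KO. Insr, the insulin receptor, fell by 0.57 and 1.13. Among binding proteins, Igfbp4 fell by 2.231 in CTRL and fell by 1.997 in KO, and Igfbp7 fell by 1.34 and 0.94, while Igfbp5 was at 37.69 ± 1.844 CPM in P14 CTRL and 39.96 ± 7.257 CPM in P90 CTRL. Igfbp3 was at 7.361 ± 4.311 and 6.011 ± 0.6753 CPM and Igfbp6 at 1.095 ± 0.886 and 1.191 ± 0.7078 CPM in the same groups, and Igfbp2 had 3 and 4 counts. Irs2, a substrate of the receptors, fell by 2.27 in CTRL. Igfals, which holds the circulating IGF complex together, rose by 1.97 and 2.39, and Tsc2, a brake on mTOR signalling, rose by 0.88 in CTRL and by 0.69 in KO. Foxo3, a transcription factor held in check by insulin signalling, fell by 1.74 in CTRL and fell by 1.62 in KO.

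Cell cycle genes were followed as lists of CDK inhibitors and proliferation genes. Of the other CDK inhibitors, 0 of 4 tested were called by edgeR in either KO comparison or in CTRL with age, and in KO 2 were lower at P90, Cdkn1a (-0.96 ± 0.23, adjusted p 0.00592) and Cdkn1b (-0.78 ± 0.29, adjusted p 0.0442). Of 16 proliferation genes 0 were called in neonatal KO and 0 of 6 in adult KO by edgeR, while 10 of 13 were lower at P90 in CTRL (median -3.78) and 15 of 16 in KO (median -3.93). Beside both lists, 8.59% of all genes were called in neonatal KO and 0.39% in adult KO. With age 29.3% were called in CTRL (14.9% lower) and 56.8% in KO (29.1% lower). Plk1, a mitotic kinase, Top2a, a topoisomerase of dividing cells, and Ccna2, cyclin A2, had the largest fitted falls of the 13 tested in CTRL at -5.26, -4.99 and -4.64. Their P90 levels were near the floor, with 2, 0 and 0 Plk1 counts in P90 CTRL, so their order is uncertain, and Ccnb1 and Bub1 were not tested there. Their P14 levels were uneven, with 16, 12 and 86 Plk1, 113, 48 and 302 Top2a and 62, 33 and 247 Ccna2 counts in P14 CTRL. Replicate 3, the sample with the lowest Igf2, H19 and Cdkn1c of its group, was thus the highest for all of them, also in P14 KO. In KO the largest fitted falls were those of Bub1, a mitotic checkpoint kinase (-5.44), Top2a (-5.36) and Ccnb1, cyclin B1 (-5.31).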

How the data were processed

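PolyA RNA of sorted CMs was made into SMART-Seq v4 and Nextera XT libraries. The authors aligned reads to mm10 with STAR 2.5.3a and deposited raw gene counts made with featureCounts (Subread 1.5.2), in 1 table per age. CASAVA 1.8 is also named in the submitters' processing notes. Strand and multimapping settings are not given in the sources used here. Samples were grouped by the labels. With 3 samples per group, P14 and P90 counts were joined by gene row. edgeR 4.0.16 (R 4.3.3, limma 3.58.1) was used with filterByExpr, TMM scaling and quasi-likelihood tests, fitted on the 6 samples compared, or on all 12 for the interaction, with Benjamini-Hochberg adjustment over all genes tested and a threshold of 0.05. SEs were derived from the fold change and F statistic, and normal 95% intervals from these. Scripts were tested on simulated data. Alternatives were DESeq2 1.42.0, RLE scaling, total counts, no filter, a replicate block, 1 fit of 12 samples, leaving out each sample, and, added after the data were seen, leaving out the libraries with over 100 Y-linked counts.

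The members and lists were chosen with earlier results of these data known. Named genes were all members and Srf, up to 3 called genes per direction in each other list with at least 1 CPM in a compared group, ligands, receptors and binding proteins of the IGF list, and the 5 genes nearest to Igf2 and to H19. A gene that this rule names in the IGF list is not reported here. The labels give 3 biological replicates per group and do not say whether each was 1 animal, so p-values measure the spread between these samples. Replicates of a group differed by more than sampling noise, so none was a repeat deposit. Same-numbered P14 samples deviated together (r = 0.129, 0.123 and 0.445 over 12546 genes), which met the rule for pairing, although CTRL 1 with KO 2 (0.162) and CTRL 2 with KO 1 (0.139) correlated slightly more. In adults the values were 0.248, 0.008 and 0.068, which did not. Promoters and miRNAs are RefSeq (GRCm38.p6), read with Python.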

Additional observations from a re-analysis of the deposited data

Results flagged for a closer look

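The effect of Srf KO on Grb10 differed between the ages, with a difference of 0.687 on the log2 scale (SE 0.158, adjusted p 0.0478 by edgeR), tested as the interaction of age and genotype. In P14 KO 3 of 3 samples were above all P14 CTRL samples, and in P90 KO 3 of 3 were below all P90 CTRL samples. The call was lost in 9 of the 12 fits that left out 1 sample, and without the libraries with Y-linked counts (0.589, adjusted p 0.197). Over all 19 fits the adjusted p ran from 0.00227 to 0.197.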

How the results depend on the processing

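The falls of Plagl1, Igf2, H19, Peg3 and Mest with age kept their call in all 14 fits in each genotype. The neonatal count of called members, 0, was 1 (Grb10) with DESeq2, with total counts, with no filter and in 1 fit of all 12 samples, and 0 to 1 when each sample was left out, with 1 without P14 CTRL replicate 2. The adult count was 1 (Igf2r) with no filter and 0 in every fit that left out a sample. The interaction count, 1, was 2 with DESeq2 (Igf2r added), 0 without the libraries with Y-linked counts and 0 to 1 when each sample was left out. The stage counts ran from 6 to 8 in CTRL and 6 to 7 in KO when each sample was left out. The replicate block gave 0, 0, 1, 7 and 7 and changed none of these counts. The causes were not tested.

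Values near 0 changed sign. With total counts, which moved the median of all genes by 0.216 in neonatal KO, 0.171 in the interaction, -0.125 in CTRL and -0.323 in KO with age, neonatal Igf2 was 0.03 and Cdkn1c 0.003, and the interaction was 0.081 for Igf2 and 0.103 for Mest. With the replicate block neonatal Igf1r was -0.026 and the Mest interaction 0.121. Without the libraries with Y-linked counts neonatal Igf2 was 0.579, H19 0.164 and Cdkn1c 0.291, adult Mest -0.157, the interaction 0.81 for Igf2, 0.225 for H19, 0.275 for Cdkn1c, 0.075 for Peg3 and 0.817 for Mest, and Igf2r with age in KO 0.001. When each sample was left out, the neonatal values ran from -0.584 to 0.244 for Igf2, -0.281 to 0.2 for Igf1r, -0.489 to 0.093 for Cdkn1c, -0.027 to 0.286 for Peg3, -0.308 to 0.549 for Mest and -0.058 to 0.148 for Plagl1. The adult ones ran from -0.294 to 0.287 for Igf2 and -0.157 to 0.232 for Mest. The interaction ran from -0.505 to 0.347 for Igf2, -1.43 to 0.07 for H19, -0.393 to 0.109 for Peg3 and -0.374 to 0.485 for Mest. With age, Cdkn1c ran from -0.032 to 0.407 in CTRL and Igf2r from -0.135 to 0.107 in KO. Over all genes the calls ran from 88 to 2088 in neonatal KO (1078 as reported), 3 to 701 in adult KO (46), 4 to 894 in the interaction (228) and 925 to 4768 in CTRL with age (3607). Depth limited H19 at P90 and Dlk1 throughout, which stood at 0 to 6 counts per library.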
